A study of Mus musculus and Rattus norvegicus with 11 samples.

Results

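Endothelial cells of peripheral nerve were examined in NOD mice labelled as Icam1 knockout. The members were the 82 cells that carry the deposited name EC and a barcode of one of the 3 libraries with that label. They made up 82 of 5127 annotated cells in those libraries and of 15672 annotated mouse cells in the series, with 26 cells in library 1, 26 in library 2 and 30 in library 3.

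Cells were taken from dissected sciatic nerve and brachial plexus, freed with enzymes, depleted of myelin, sorted as live cells and profiled with droplet 3′ RNA sequencing (10x, version 2 chemistry). The knockout background is spelled ICAM-1-1/-NOD on the samples and ICAM-1-/-NOD in the design text of the series, where both NOD groups serve the study of chronic autoimmune neuritis. The comparison groups were EC of NOD control mice without the label (35 cells in control 1 and 238 in control 2, whose libraries 2-1 and 2-2 were summed as 1 sample) and the cells named EC1 of undiseased C57BL/6 mice (146, 327 and 25 cells in samples 1, 3 and 4). NOD is the inbred background that the knockout-labelled and NOD control groups share. The labels give no age, sex, number of pooled animals or deleted exon. They do not say that libraries came from separate animals, so p-values measure only the spread between these samples, which may be technical.

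Endothelial cells line every vessel of the nerve. In the capillaries inside the nerve bundle they form the blood-nerve barrier: claudins and other tight junction proteins seal the gaps between cells, carriers such as the glucose transporter bring nutrients across, and efflux pumps return foreign compounds to the blood. The same cells decide which leukocytes enter, since they display adhesion molecules, chemokines and, under interferon, antigen on MHC molecules. ICAM-1 is one of these adhesion molecules and is bound by leukocyte integrins.

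The 82 cells held 90230 UMIs (unique molecular identifiers, each 1 captured transcript): 34946, 25339 and 29945 in libraries 1, 2 and 3. The median cell had 1200, 808 and 937 UMIs in these libraries. EC of NOD control were shallower, with medians of 535 and 639 UMIs in controls 1 and 2 and totals of 20414 and 171208. C57BL/6 EC1 held 106751, 473209 and 27675 UMIs. A count of 3 UMIs corresponds to 33.2 CPM in the pooled knockout-labelled EC, so absence below that level was not detectable at this depth. Libraries 1 and 2, 1 and 3, and 2 and 3 with the knockout label shared 1, 4 and 6 barcodes, and 0 of these were EC. Levels are counts scaled by the total UMIs of the cell type in that sample or pool (CPM), and their intervals are exact Poisson intervals at 95%. Intervals of ratios are exact binomial intervals at 95% on UMIs pooled over the samples of each group. Both cover counting error only, not the spread between samples. The 3′ tags give about 1 count per transcript, so CPM were not divided by gene length.

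The name EC was borne out by the marker genes. Of 23 endothelial identity genes 22 were detected and 19 were present in every one of the 3 libraries, with the transcription factor gene Erg at 0. Cldn5, the claudin that seals endothelial tight junctions, had 227, 150 and 179 UMIs in libraries 1, 2 and 3, or 6162 CPM pooled (5660 to 6696). The cell type with the next highest level, CD4, had 8.52 CPM. Cdh5, the cadherin of endothelial junctions, had 17, 7 and 11 UMIs (388 CPM) against 80.3 CPM in pDC, the next type. Cxcl12, a chemokine that endothelial and stromal cells share, had 46, 40 and 36 UMIs (1352 CPM) against 869 CPM in the 20 fibro cells. These differences are a description without a test, since how the authors clustered and named the cells is not given in the sources used here.

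Cldn5 transcripts were found in 79 of 82 EC (96.3%, Clopper-Pearson interval 89.7 to 99.2%). The median EC had 977 UMIs and the median CD4 cell, with 17 Cldn5 UMIs among 2041 cells, had 855. Cell by cell the marker genes were thinly sampled: Cdh5 was counted in 30 of 82 EC and Cxcl12 in 54.

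Which genes set EC apart from the other annotated types of the same libraries was asked of 762 genes with at least 20 UMIs in EC and at least 1 in each library. Of these, 250 were higher in EC than in each of the other types with at least 20 cells, and 42 were at least 10-fold higher. The 25 with the highest ratios ran from Cldn5 (723-fold) to Spock2, a secreted proteoglycan (32.5-fold). Epas1, a hypoxia-regulated transcription factor gene, had the same ratio with 20 UMIs and stood just outside. In the plot of leading genes all 3 EC libraries lie above the next type for all 25.

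**Figure D1:**
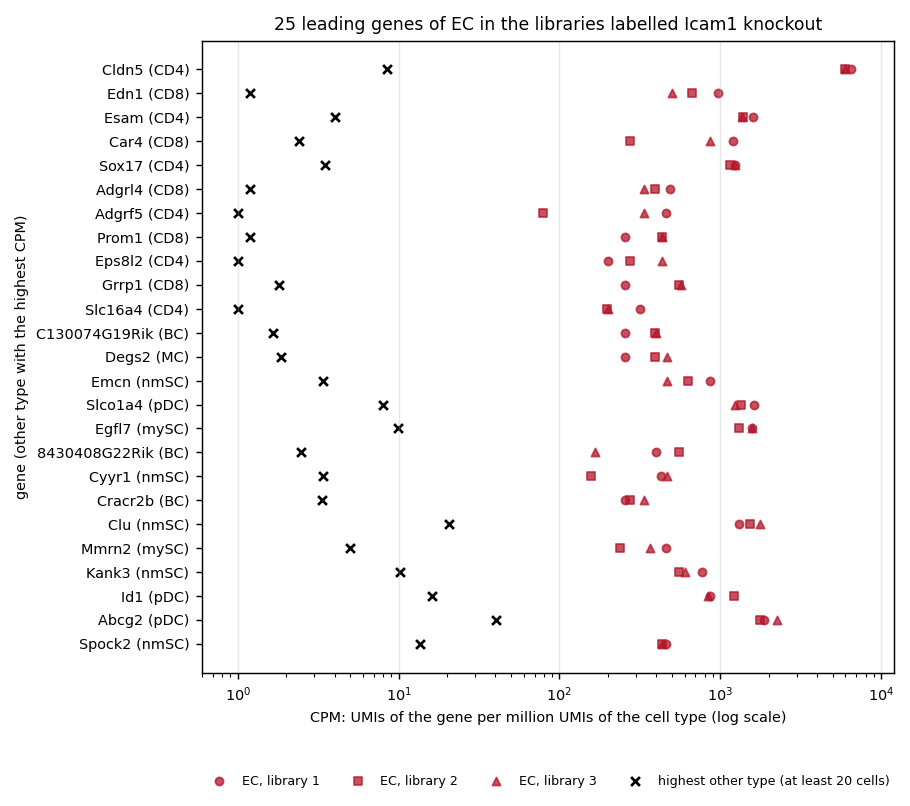
Level of the 25 leading genes in EC of the knockout-labelled libraries 1, 2 and 3 (red symbols) and in the other type with the highest level among those of at least 20 cells (black cross, type named beside the gene), on a log axis of CPM. Cldn5 lies between 5920 and 6496 CPM in EC against 8.52 CPM in CD4, and the widest spread between EC libraries is in Adgrf5, with 79 to 458 CPM.

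Several leading genes belong to vessel tone, vessel growth and junctions. Edn1, which encodes the vasoconstrictor endothelin, had 34, 17 and 15 UMIs, but 18 of its 66 UMIs came from 1 cell and 38 from 4 cells. Esam, a junctional adhesion molecule, had 56, 35 and 41 UMIs (1463 CPM against 4.01 in CD4). The 14 vSMC/PC cells, too few for the ranking, held 6 Esam UMIs (430 CPM). Car4, a carbonic anhydrase on the lumen of capillaries, had 42, 7 and 26 UMIs. Library 2 was thus low for Car4, at 276 CPM against 1202 and 868 CPM in libraries 1 and 3. Sox17, a transcription factor gene of arterial endothelium, was even across libraries, with 1230, 1144 and 1236 CPM, and was counted in 54 of 82 cells. Emcn (a sialomucin of capillary and venous endothelium), Egfl7 (a secreted vascular factor) and Mmrn2 (an endothelial matrix protein) had 665, 1496 and 366 CPM. Adgrl4 and Adgrf5, adhesion receptor genes of endothelium, stood at 410 and 310 CPM. Id1, a target of BMP signals, stood at 953 CPM.

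Other leading genes are not on any of the gene lists used here. They included Prom1 (366 CPM), Eps8l2 (299 CPM), Grrp1 (443 CPM), Degs2 (366 CPM), Kank3 (654 CPM), Cyyr1 (366 CPM), Cracr2b (288 CPM), and Clu, the secreted chaperone clusterin, at 1529 CPM against 20.4 CPM in nmSC. Clu was counted in 56 of 82 cells. Slc16a4 (244 CPM), a monocarboxylate carrier, and the unnamed transcripts C130074G19Rik and 8430408G22Rik (344 and 366 CPM) completed the set.

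Barrier genes were among the most abundant transcripts of these cells. Of 26 genes on the blood-nerve barrier list 22 were detected, 19 in every library, and the list summed to 22820 CPM in EC, against 3737 CPM in nmSC and 2261 CPM in mySC. Bsg, the carrier chaperone basigin, had 328, 134 and 218 UMIs (7536 CPM) and was found in 79 cells, with 746 CPM in nmSC as the next type. The efflux pump gene Abcg2 had 65, 45 and 67 UMIs (1962 CPM, 1683 to 2273) against 40.2 CPM in pDC. The organic anion carrier gene Slco1a4 had 57, 34 and 37 UMIs (1419 CPM) against 8.03 CPM in pDC. Both were even between libraries, and each was counted in most of the cells (60 and 50 of 82).

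Further down the list stood the amino acid carrier chain Slc3a2 (1363 CPM) and its partner Slc7a5 (443 CPM), the glucose transporter gene Slc2a1 (720 CPM) and the efflux pump gene Abcb1a (543 CPM). Slc3a2 was also abundant in pDC (827 CPM), whereas Slc2a1 had at most 54.3 CPM in another type, in fibro. The tight junction scaffold gene Tjp1 had 233 CPM, Lsr, a protein of tricellular junctions, 166 CPM, and the adhesion gene Jam2 244 CPM. Mfsd2a, a lipid carrier that limits transcytosis in brain endothelium, had 7 UMIs. Ocln, Cgn, Slc16a1 and Slco2a1 had no UMI.

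The sequences before the start sites of 3 leading barrier genes are given because these are the members of the barrier list among the 25 leading genes. RefSeq windows of the build GRCm38.p6, from 250 bases before to 50 after the start, matched 18 of the 25 leading genes with 24 windows. They were searched on both strands for AGGAAG, a core bound by ETS factors, and ACAATG, a site bound by SOX factors, and matches are in capitals. The windows lie at chr16:18776597-18776896 (plus strand) for Cldn5, chr6:141856171-141856470 (minus strand) for Slco1a4 and chr6:58584283-58584582 (plus strand) for Abcg2. Of 3 windows for Abcg2 the 1 nearest to the annotated gene start is given.
Cldn5: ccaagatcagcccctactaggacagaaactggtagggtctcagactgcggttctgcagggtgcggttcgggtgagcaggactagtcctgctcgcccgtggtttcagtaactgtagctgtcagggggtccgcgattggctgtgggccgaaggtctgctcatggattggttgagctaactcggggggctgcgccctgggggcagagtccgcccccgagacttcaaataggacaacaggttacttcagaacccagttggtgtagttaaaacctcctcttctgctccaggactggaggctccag
Slco1a4: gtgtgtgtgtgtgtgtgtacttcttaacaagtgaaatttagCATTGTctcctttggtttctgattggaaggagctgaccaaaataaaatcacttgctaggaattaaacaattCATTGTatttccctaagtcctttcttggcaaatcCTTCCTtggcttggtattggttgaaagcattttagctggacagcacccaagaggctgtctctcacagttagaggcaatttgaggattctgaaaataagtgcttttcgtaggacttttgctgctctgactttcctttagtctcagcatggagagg
Abcg2: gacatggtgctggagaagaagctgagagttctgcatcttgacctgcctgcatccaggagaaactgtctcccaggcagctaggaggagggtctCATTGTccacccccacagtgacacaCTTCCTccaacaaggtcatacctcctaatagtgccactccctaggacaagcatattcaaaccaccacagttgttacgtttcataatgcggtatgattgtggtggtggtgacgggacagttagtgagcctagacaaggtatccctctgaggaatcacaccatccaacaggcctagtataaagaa
The Cldn5 window held neither word, the Slco1a4 window held 1 AGGAAG and 2 ACAATG matches, and the Abcg2 window held 1 of each. Over all windows of the leading genes 14 of 24 (58.3%) held AGGAAG and 2 (8.33%) held ACAATG. Of all 32851 windows 35.4% and 12.6% did. A match is a word in the sequence, not a measured binding site, and windows of 1 gene are not independent.

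Caveolae, the membrane pits through which endothelium moves cargo, were represented by Cav1 (1009 CPM), Cavin2 (853 CPM) and Cav2 (809 CPM). Among the types of at least 20 cells the next highest levels were 190 CPM of Cav1 and 27.2 CPM of Cavin2 in fibro and 112 CPM of Cav2 in nmSC. Plvap, the diaphragm protein of leaky vessels, had 7 UMIs in 4 cells.

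Capillary and arterial transcripts were common and lymphatic ones absent among the vessel segment markers. The capillary list had UMIs in 79 of 82 cells (96.3%), against 34.1% of CD4 cells, and the arterial list in 67 (81.7%), against 1.03% of CD4 cells. The venous list had UMIs in 28 cells (34.1%), 20 of which also had arterial UMIs. CD4 cells had venous UMIs in 1.52% and nmSC in 38.5%, so genes of this list are not counted in endothelium alone. The median CD4 cell had 855 UMIs and the median nmSC 1371. Ly6c1 (4200 CPM, 68 cells) and Car4 (831 CPM, 22 cells) led the capillary list. Of its 490 UMIs Ly6c1 had 130, 130 and 119 in libraries 1, 2 and 3, while Btnl9, Cd300lg and Fabp4 had none. The share of cells with capillary UMIs thus rests largely on Ly6c1. Sox17 made up 109 of 192 arterial UMIs. Gja4, the arterial connexin, and Hey1, a Notch target, had 15 and 14 UMIs. Of the venous genes Vwf, the clotting factor carrier, was found in 12 cells, while the selectin genes Sele and Selp and the carrier gene Slc38a5 had no UMI. None of the 7 lymphatic genes had a UMI, in 0 of 82 cells, which allows a share of cells with such a UMI of up to 4.40% (Clopper-Pearson) and says nothing of cells that hold the transcripts uncounted.

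Transcripts of other cell types were present at low levels, as the plot of list levels shows. The 8 pan fibroblast genes summed to 510 CPM in EC, beside 671 CPM in CD4 and 546 CPM in BC. The source of these UMIs was not tested. The 8 T cell genes summed to 388 CPM, against 484 CPM in nmSC and 579 CPM in mySC, and each had UMIs. The B cell list had 22 UMIs, 18 of them in library 3, and the myeloid list 42 UMIs, of which 26 were Lyz2 in 1 cell of library 3. The mural list had 12 UMIs, all in library 1 and 10 of them Acta2, with Rgs5, Pdgfrb, Myh11 and Kcnj8 at 0. The Schwann list stood at 510 CPM, nearly all of it Mal (443 CPM, 31 cells), and 7 of its 9 genes, Sox10 among them, were at 0. The platelet list was at 0. A doublet caller marked 1 of the 82 cells, in library 3, and no EC was removed in the main results.

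**Figure D2:**
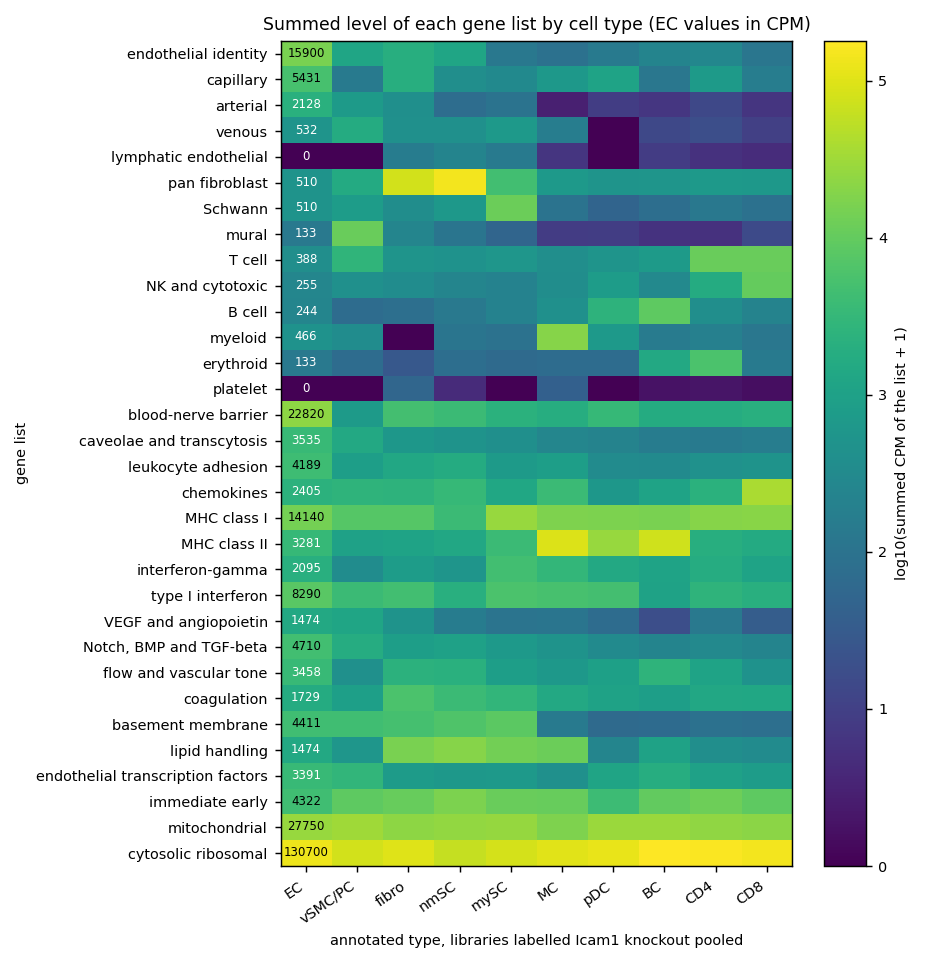
Summed level of each gene list by annotated type in the pooled knockout-labelled libraries, as log10(CPM + 1) in colour, with the EC sum in CPM printed in the first column (types with 14 or more cells shown). EC lead for the identity (15900 CPM), barrier (22820 CPM) and caveolae (3535 CPM) lists. MHC class I is higher than in EC in mySC, CD8, CD4, MC, pDC and BC. The lymphatic and platelet lists are at 0 in EC.

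Leukocyte adhesion genes were led by Esam, Pecam1 (665 CPM), Cd34 (632 CPM) and Icam2 (355 CPM), and 12 of the 16 genes that the annotation holds were detected. Icam1 transcripts were counted in EC of every knockout-labelled library, with 5, 7 and 4 UMIs (143, 276 and 134 CPM). NOD control EC had 1 and 8 UMIs (49 and 46.7 CPM). Other types held Icam1 as well: nmSC had 111, 149 and 148 CPM with the label against 46.4 and 22.9 CPM in NOD control, and CD4 had 229, 247 and 211 CPM against 98.3 and 39.6 CPM. The deleted part of the gene is not given and the tags come from the 3′ end, so nothing about genotype or protein can be read from these counts. Vcam1, the other main integrin ligand, had 10 UMIs in 6 cells. Sele, Selp, Madcam1 and Glycam1, which carry rolling or homing leukocytes, were at 0.

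The label was tested within the NOD strain on UMI counts summed per sample, 3 samples against 2, with edgeR's quasi-likelihood test. Values are log2 fold changes ± SE, with Benjamini-Hochberg adjusted p over 538 tested genes. Of these 14 passed the threshold of 0.05 (2.6%): 6 were higher with the label (1.12%) and 8 lower (1.49%).

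**Figure D3:**
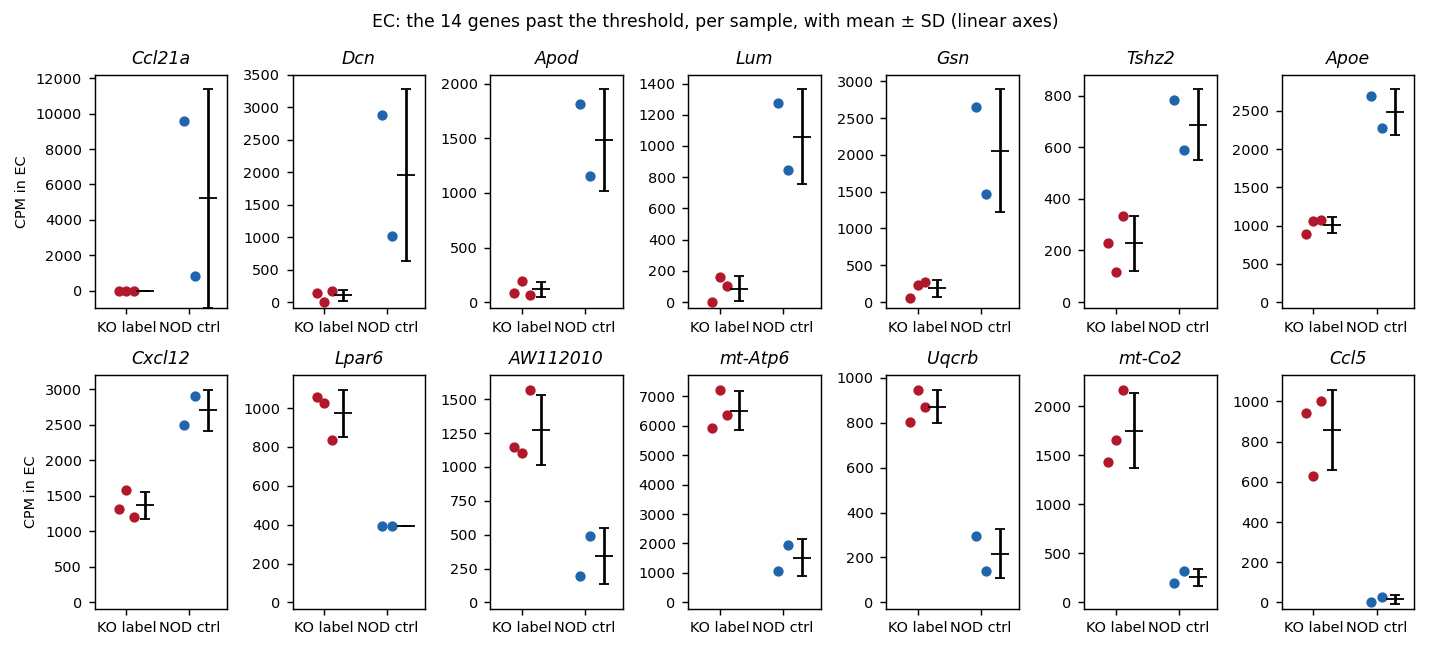
Level in EC (CPM, linear axes) of the 14 genes past the threshold in each knockout-labelled sample (red, n = 3) and each NOD control sample (blue, n = 2), with mean ± SD in black. The 2 groups do not overlap for any of the 14, and Ccl21a is at 0 in all knockout-labelled samples (the lower end of its NOD control bar, below 0, is cut off).

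Endothelial genes were mostly not called. Of 13 tested identity genes 1 passed, Cxcl12, and the median of the 13 was −0.16, beside −0.03 over all tested genes. Cxcl12 stood at 1316, 1579 and 1202 CPM in knockout-labelled samples 1, 2 and 3, against 2498 and 2909 CPM in NOD control 1 and 2 (−1.04 ± 0.23, adjusted p = 0.0289). The groups did not overlap, but the call was lost under 9 of 17 alternatives, all with the same direction (−1.26 to −0.69). Cldn5 had 6496, 5920 and 5978 CPM against 6564 and 6758 CPM in NOD control (−0.16 ± 0.18, adjusted p = 0.688). Cdh5 had 486, 276 and 367 CPM against 245 and 403 CPM (0.01 ± 0.34, adjusted p = 0.989).

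None of 9 tested barrier genes passed with edgeR or DESeq2, and their median was −0.07. At an unadjusted edgeR p under 0.05 there were 2 of the 9, beside 17.8% of all tested genes. The groups did not overlap for 3 of the 9, beside 36.1% of all tested genes. Slc2a1 had 715, 829 and 634 CPM in knockout-labelled EC against 1519 and 1221 CPM in NOD control (−0.92 ± 0.27, adjusted p = 0.102). All 3 knockout-labelled samples were thus lower, without passing the test. Abcg2 (0.34 ± 0.24), Slco1a4 (−0.44 ± 0.27) and Bsg (−0.07 ± 0.25) did not pass either. None of 3 caveolae genes, 4 adhesion genes, 7 immediate early genes or 74 cytosolic ribosomal genes passed with edgeR. At an unadjusted p under 0.05 there were 0, 0, 0 and 12 of them, beside the same 17.8% of all tested genes.

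The largest change was in Ccl21a (chr4:42772860-42773993, minus strand, mm10), a chemokine of lymphatic endothelium that guides T cells and dendritic cells. It had 0 UMIs in each knockout-labelled sample against 196 and 146 in NOD control 1 and 2 (edgeR adjusted p = 0.0042). By counting error alone the pooled level was at least 53.7-fold lower. Against NOD control 2 alone this bound was 25.6-fold and against NOD control 1 alone 289-fold. All 342 control UMIs came from 4 of 273 cells, with 146, 71, 67 and 58 UMIs each. Those of NOD control 2 all came from 1 cell. The bounds leave out this spread between cells, so they do not limit the change in EC as a type. The call was lost with DESeq2 and without knockout-labelled replicate 1. The annotation holds an opposite-strand gene across this locus, and near-identical Ccl21 copies exist, so its counts are uncertain.

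A group of 4 stromal genes were lower with the label: the matrix proteoglycans Dcn and Lum, the lipid carrier gene Apod and the actin-severing gene Gsn. Dcn had 143, 0 and 167 CPM against 2890 and 1022 CPM in NOD control (−3.99 ± 0.61, adjusted p = 0.00142), and Gsn had 57.2, 237 and 267 CPM against 2645 and 1466 CPM (−3.45 ± 0.45, adjusted p = 0.000498). Apod and Lum changed by −3.65 ± 0.41 and −3.64 ± 0.52. These are all 4 tested members of the pan fibroblast list, whose 8 genes summed to 315, 631 and 635 CPM in knockout-labelled EC and 9699 and 5105 CPM in NOD control EC. The same list stood at 838, 612 and 548 CPM in CD4 of the knockout-labelled samples and at 2898 and 4257 CPM in CD4 of NOD control. Cells named nmSC or fibro, which carry these genes, were 3.44%, 5.16% and 3.44% of annotated cells with the label and 86.6% and 38.2% in NOD control. Their part in the result was not tested. Apod and Lum passed under all 17 alternatives.

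A further 2 genes were lower. Apoe, the lipid carrier that glia and macrophages secrete, had 887, 1066 and 1069 CPM against 2694 and 2272 CPM (−1.32 ± 0.25, adjusted p = 0.00715), and it too is abundant in nmSC (19360 CPM pooled with the label). Tshz2, a zinc finger gene, had 229, 118 and 334 CPM against 784 and 590 CPM (−1.48 ± 0.36, adjusted p = 0.046) and lost the call under 8 of 17 alternatives.

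Among the genes that were higher, Lpar6 encodes a receptor for the lipid mediator lysophosphatidic acid. It had 1059, 1026 and 835 CPM with the label against 392 and 391 CPM in NOD control (1.27 ± 0.27, adjusted p = 0.0202). In CD4, BC, MC, nmSC and mySC of the same knockout-labelled samples it had at most 109 CPM, in MC of sample 3. The direction was the same under all 17 alternatives (1.00 to 1.38), and the call was lost under 8. Lpar6 lies inside Rb1 on the opposite strand, and the sources used here do not state whether counting used strand.

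Ccl5, a chemokine of T and natural killer cells, had 944, 631 and 1002 CPM against 0 and 29.2 CPM (4.92 ± 0.46, adjusted p = 5.76e-05), and AW112010, a transcript known from activated immune cells, had 1145, 1105 and 1570 CPM against 196 and 491 CPM (1.58 ± 0.34, adjusted p = 0.0202). Both are abundant in leukocytes: CD8 of the knockout-labelled libraries held 38320 CPM of Ccl5. AW112010 had 385, 356 and 526 CPM in nmSC and 239, 480 and 156 CPM in mySC of the knockout-labelled samples, all below its EC levels. Ccl5 stood at 638, 613 and 796 CPM in nmSC and 754, 548 and 1260 CPM in mySC of these samples, so its levels in EC, nmSC and mySC overlapped. The T cell list moved with it, at 486, 237 and 401 CPM in knockout-labelled EC and 0 and 105 CPM in NOD control EC, and leukocytes were 91.6%, 91.5% and 91.9% of annotated cells with the label against 8.86% and 33.9% in NOD control. The part of leukocyte transcripts in the result for these 2 genes was not tested. Without EC holding 2 or more UMIs of the T cell, cytotoxic, B cell and myeloid lists, 15, 23 and 17 cells remained in the knockout-labelled samples and 16 genes passed, Ccl5 among them.

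Respiratory chain genes that were higher were mt-Co2, mt-Atp6 and the nuclear gene Uqcrb. The level of mt-Co2 was 1431, 1658 and 2171 CPM against 196 and 315 CPM (2.56 ± 0.33, adjusted p = 0.000498). For mt-Atp6 the levels were 5923, 7222 and 6378 CPM against 1078 and 1963 CPM (1.97 ± 0.26, adjusted p = 0.000513), and for Uqcrb 801, 947 and 868 CPM against 294 and 140 CPM (2.34 ± 0.33, adjusted p = 0.000825). Of 7 tested mitochondrial genes the 2 named passed, and the median was 0.88. mt-Co1 did not pass (0.12 ± 0.30). The share of mitochondrial UMIs in EC was 2.46%, 2.83% and 3.15% with the label and 0.847% and 1.87% in NOD control. In other types mt-Co2 differed the same way: it had 1527, 1229 and 1407 CPM in CD4 with the label and 393 and 383 CPM in CD4 of NOD control. The label effect on mt-Co2 and mt-Atp6 in EC minus that in nmSC was 0.79 ± 0.36 and 0.13 ± 0.29 (edgeR adjusted p = 0.615 and 0.992).

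MHC class I genes, which present antigen to CD8 T cells, did not pass the test in EC. None of the 6 with enough counts passed with edgeR or DESeq2, and all 6 had an unadjusted p under 0.05, beside 96 of all 538 tested genes (17.8%). All 6 were positive, with a median of 0.77, and their groups did not overlap, beside 36.1% of all tested genes. H2-T23, a nonclassical heavy chain with too few counts for the test, had 143, 316 and 334 CPM against 245 and 222 CPM, and its groups overlapped. H2-D1, a classical heavy chain, had 3806, 3591 and 4642 CPM against 2204 and 2038 CPM (0.89 ± 0.23, adjusted p = 0.0586). B2m, the light chain, had 4035, 5012 and 5076 CPM against 3037 and 2570 CPM (0.73 ± 0.22, adjusted p = 0.109), and Psmb8 of the immunoproteasome 773, 789 and 1002 CPM against 539 and 420 CPM (0.89 ± 0.28, adjusted p = 0.125). H2-D1 passed under 6 of 17 alternatives. Over all 16 class I genes EC held 12880, 14170 and 15600 CPM with the label against 8720 and 7891 CPM in NOD control.

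Of the interferon-gamma list only 1 gene had enough counts to be tested: Iigp1, an induced GTPase, with 372, 316 and 401 CPM against 49 and 158 CPM (1.34 ± 0.51, adjusted p = 0.207). All 19 genes of the list were detected in knockout-labelled EC and summed to 1946, 2052 and 2304 CPM, against 637 and 1051 CPM in NOD control EC. Type I interferon genes had no common direction, with 2 of 6 positive, a median of −0.12 and none past the threshold. Ifitm3, which blocks virus entry, was abundant in both groups at 4493, 4420 and 4108 CPM against 4997 and 4217 CPM.

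MHC class II transcripts were spread unevenly between cells. Cd74, the invariant chain, had 21, 21 and 120 UMIs in knockout-labelled samples 1, 2 and 3, or 601, 829 and 4007 CPM, against 0 and 683 CPM in NOD control (1.85 ± 0.77, adjusted p = 0.211). The 4 cells with the most Cd74 held 90 of its 162 UMIs, and 48 of 82 cells had at least 1. The highest cell held 33. BC held 49120, 48630 and 45520 CPM of Cd74 in knockout-labelled samples 1, 2 and 3.

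Whether the label effect in EC differed from that in other nerve cells was tested as an interaction within the same 5 samples. Against mySC, the cells that carry the myelin genes, 50 of 1076 genes passed (4.65%): 30 were lower in the EC effect (2.79%) and 20 higher (1.86%). MHC class I genes had a smaller label effect in EC. Of 13 tested, 8 passed and all 13 were negative, with a median of −2.22 beside 0.09 over all tested genes. In EC alone only 6 class I genes had enough counts for a test. Some of the 13 met the count filter only through mySC with the label, such as Psmb10 with 38, 25 and 23 UMIs there. That favours a negative sign, so the count of negative genes was partly set by the filter. H2-D1 had 8600, 9182 and 8298 CPM in mySC with the label against 76.4 and 419 CPM in mySC of NOD control, and its effect in EC minus that in mySC was −3.34 ± 0.44 (adjusted p = 3.96e-11). H2-K1 (−2.69 ± 0.42) and Psmb8 (−2.30 ± 0.46) did likewise. EC of NOD control held 2204 and 2038 CPM of H2-D1.

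**Figure D4:**
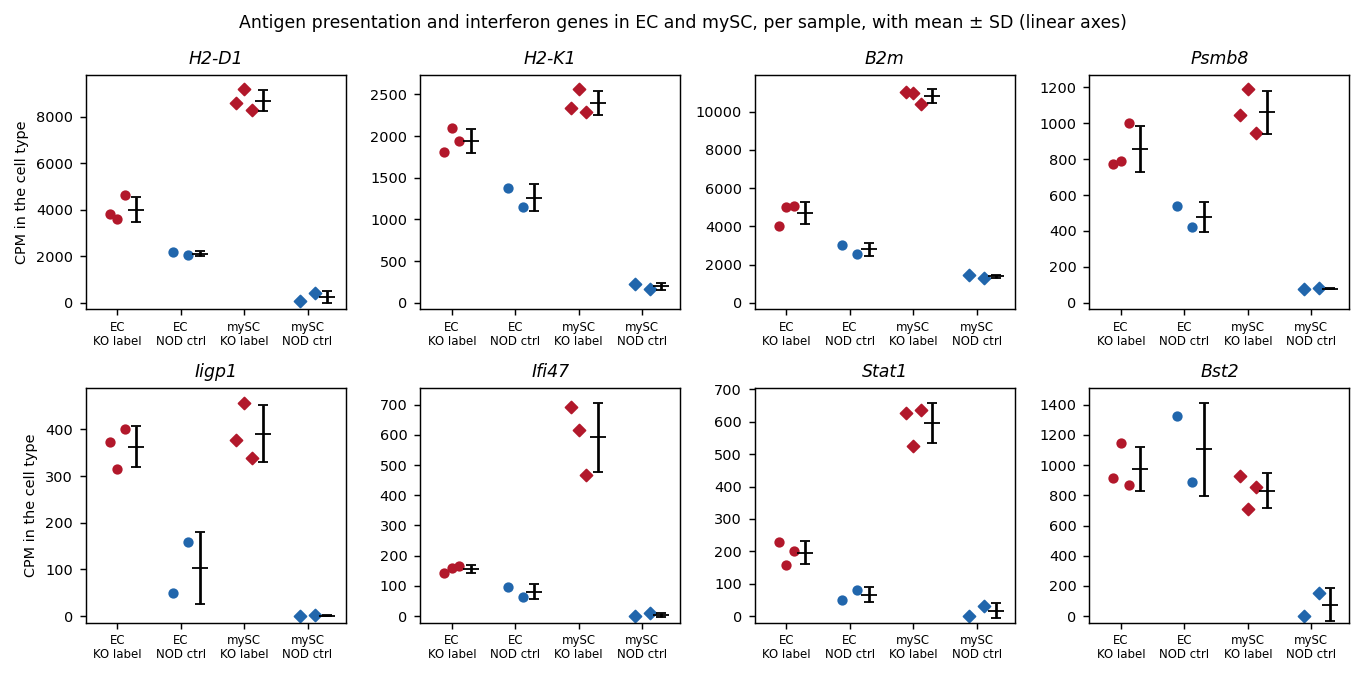
Level in each sample (CPM, linear axes) of 8 antigen presentation and interferon genes in EC (circles) and mySC (diamonds), with the knockout label (red, n = 3) and in NOD control (blue, n = 2), and mean ± SD in black. In mySC of NOD control all 8 genes are below their levels in mySC with the label, though B2m is still at 1451 and 1319 CPM. H2-D1 is there at 76.4 and 419 CPM, while EC of NOD control hold 2204 and 2038 CPM.

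Interferon-gamma genes had the same sign: all 9 tested members were negative, 6 passed, and the median was −2.65. In EC alone only 1 of them had enough counts for a test. Irgm1, Ifi47 and Gbp3 met the count filter only through mySC with the label, which favours a negative sign. Irgm1 had 46, 10 and 21 UMIs there and 3, 4 and 3 in EC with the label. Iigp1 stood at 377, 457 and 338 CPM in mySC with the label, close to EC, but had 0 and 1.8 CPM in mySC of NOD control (−5.48 ± 1.10, adjusted p = 6.74e-05). Ifi47 and Gbp3, further induced GTPase genes, differed by −4.33 ± 1.00 and −4.12 ± 1.34. Of 10 type I interferon genes 3 passed, Bst2 (−2.19 ± 0.43), Isg15 (−2.12 ± 0.68) and Ifitm3 (−1.27 ± 0.40). Control 1 held only 20 mySC with 13094 UMIs. Without NOD control 2, 3 class I genes and 0 interferon-gamma genes passed, and the EC-minus-mySC value of Irgm1 was 2.89 instead of −4.35.

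Genes whose effect was higher in EC than in mySC included Sox17, Cldn5, Klf2, Cav1, Cav2, Id1, Id3 and Ly6c1. Most have few counts in mySC: Cldn5 had 1, 0 and 0 UMIs in mySC with the label and 1 and 40 in mySC of NOD control. Cldn5 thus met the count filter only through EC, where it is high, and Sox17 had 0 UMIs in mySC with the label. In EC alone neither passed against NOD control (Cldn5 −0.16 ± 0.18, Sox17 1.03 ± 0.31). Klf2, a flow-induced transcription factor gene, had 1774, 2447 and 1670 CPM in EC with the label against 1176 and 1086 CPM in EC of NOD control, and 340, 388 and 494 CPM against 840 and 1030 CPM in mySC. The difference between these label effects passed (2.33 ± 0.41, adjusted p = 3.21e-06), while the effect in EC alone did not (0.77 ± 0.26, adjusted p = 0.172).

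Against nmSC, whose leading genes are those of endoneurial fibroblasts, 19 of 2419 genes passed (0.785%), 18 lower in the EC effect (0.744%) and 1 higher (0.0413%). Of 8 pan fibroblast genes 5 were among the 18. Dcn had 61970, 49700 and 50910 CPM in nmSC with the label against 51760 and 31430 CPM in nmSC of NOD control (−4.21 ± 0.47, adjusted p = 1.56e-15). None of 12 MHC class I genes and 8 interferon-gamma genes passed with edgeR or DESeq2. Their medians were −0.05 and −0.40, beside 0.11 over all genes. At an unadjusted edgeR p under 0.05 there were 0 and 1, beside 6.99% of all tested genes. The gene that was higher, Id1, had 0 UMIs in each nmSC sample with the label, and its call was lost under 9 of 11 alternatives, RLE size factors among them. With RLE factors the median over all genes was −0.02 against nmSC and −0.04 against mySC.

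EC with the label were also set against EC1 of C57BL/6 mice, 3 samples against 3. Strain, disease and label cannot be told apart here, nor can the sequencing run, since the labels name 2 sequencers and not which library ran on which. Of 505 tested genes 31 passed (6.14%), 16 higher with the label (3.17%) and 15 lower (2.97%). This comparison shares its knockout-labelled samples with the one against NOD control, so the 2 are not independent.

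Among the genes that passed were endothelial ones. Klf2 had 1774, 2447 and 1670 CPM against 440, 408 and 759 CPM in C57BL/6 (log2 fold change ± SE 1.96 ± 0.34, adjusted p = 0.00328). Lpar6 had 1059, 1026 and 835 CPM against 206, 437 and 398 CPM (1.495 ± 0.31, adjusted p = 0.00939), and Cav2 973, 671 and 735 CPM against 365, 268 and 361 CPM (1.31 ± 0.29, adjusted p = 0.0161). Lpar6 in every knockout-labelled sample was thus above every sample of both other groups. Cd59a, which guards cells from complement, had 1116, 1736 and 1236 CPM against 244, 334 and 289 CPM (2.21 ± 0.30), and Slc39a8, a metal ion carrier, 887, 355 and 501 CPM against 0, 42.3 and 0 CPM (4.33 ± 0.62). Gkn3, a secreted protein known from arterial endothelium, was lower: 0, 118 and 33.4 CPM against 553, 714 and 578 CPM (−3.78 ± 0.56, adjusted p = 0.000962). It was found in 3 of 82 knockout-labelled EC and 88 of 498 EC1.

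**Figure D5:**
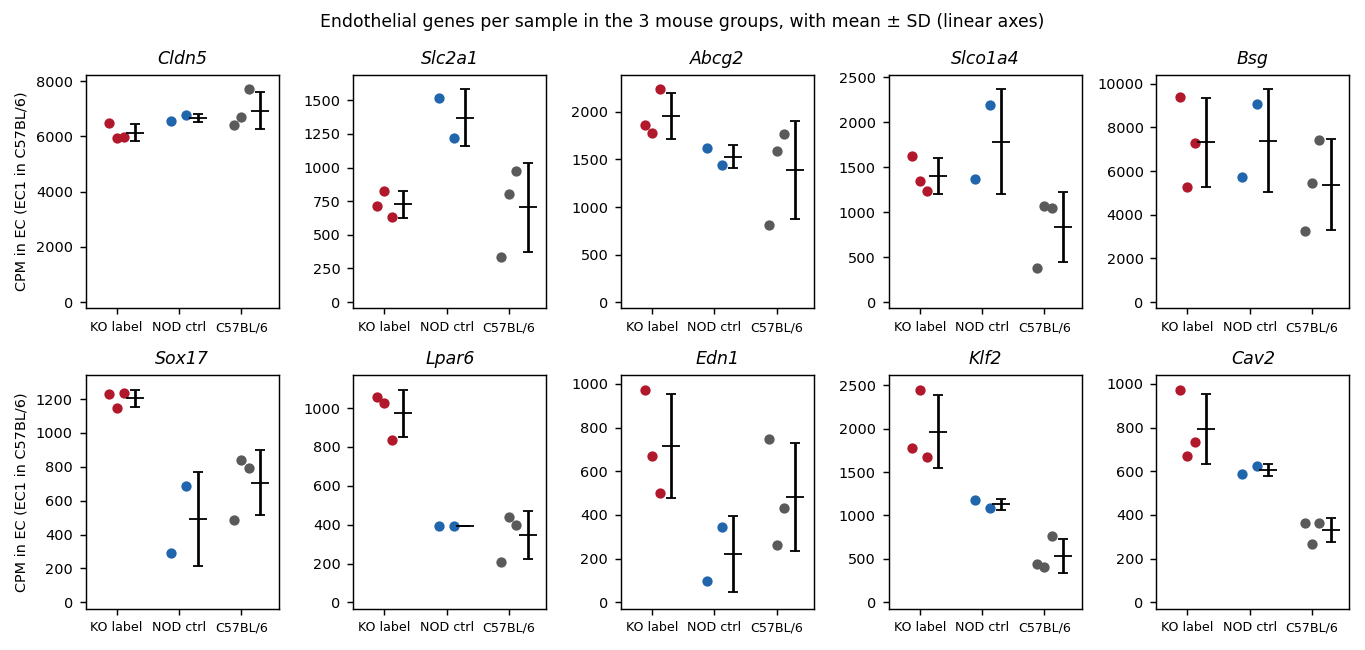
Level per sample (CPM, linear axes) of 10 endothelial genes in EC with the knockout label (red, n = 3), EC of NOD control (blue, n = 2) and EC1 of C57BL/6 (grey, n = 3), with mean ± SD in black. Cldn5 lies between 5920 and 7696 CPM over all 3 groups, whereas Lpar6 and Klf2 are highest in every knockout-labelled sample.

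None of 9 barrier genes and 12 identity genes passed against C57BL/6 with edgeR or DESeq2. Their medians were 0.49 and −0.02, beside 0.02 over all tested genes. At an unadjusted edgeR p under 0.05 there were 1 and 0, beside 18.4% of all tested genes. Of 6 MHC class I genes 1 passed, H2-Q4 (1.20 ± 0.32, adjusted p = 0.0499), which lost the call under 11 of 16 alternatives. The interferon-gamma list summed to 1946, 2052 and 2304 CPM with the label and to 965, 1450 and 2096 CPM in C57BL/6 samples 1, 3 and 4, so the groups overlapped. Cd74 had 601, 829 and 4007 CPM against 178, 57.1 and 36.1 CPM (4.26 ± 0.78). The ratio of pooled Ccl5 levels, with 79 UMIs against 3, was 177 (58.5 to 878 by counting error alone).

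Ribosomal protein genes, 81 of the 505 tested, made up 10 of the 31 calls, 9 lower and 1 higher. Of all tested genes 6.14% passed. Rps18 had 3 UMIs with the label against 2308 in C57BL/6, a ratio of 0.00875 (0.0018 to 0.0256), while the predicted gene Gm10260 had 232 UMIs against 2, a ratio of 781 (214 to 6489). Rps27 changed by −3.36 ± 0.37 and Rps27rt by 1.94 ± 0.37. Such genes have near-identical copies among which reads can be split, so their values are uncertain. Over 81 tested ribosomal genes 77 were negative, with a median of −0.64. The ribosomal list summed to 134300, 121400 and 134300 CPM with the label and to 293900, 167000 and 159900 CPM in C57BL/6 samples 1, 3 and 4. The mitochondrial share was 2.46%, 2.83% and 3.15% with the label, against 0.947%, 3.42% and 3.79% in the same C57BL/6 samples. The part of C57BL/6 sample 1 in the result for this list was not tested.

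The share of EC among cells that are not leukocytes was 20.2%, 17.1% and 20.4% in the knockout-labelled samples and 2.74% and 9.12% in NOD control (means 19.2% ± 1.84 and 5.93% ± 4.51, SD, n = 3 and 2). The difference of 13.3 percentage points had p = 0.1 in an exact two-sided permutation test, the smallest that 3 against 2 samples allow. Of all annotated cells EC were 1.69%, 1.46% and 1.66% with the label and 2.5% and 6.03% in NOD control, a difference of −2.66 points, so the sign depends on whether leukocytes are counted. Leukocytes were 91.5% to 91.9% of annotated cells with the label.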

How the data were processed

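The deposited matrix holds whole UMI counts per gene and cell barcode, made by the authors with Cell Ranger 3.0.2 on the mm10 build, per the file headers and the submitters' processing notes; the annotation release is not given in the sources used here. Cell names were the authors' deposited annotation, and the barcode suffix gave the library. Control libraries 2-1 and 2-2 were summed as 1 sample. Rat cells were not used. Counts were summed per sample and cell type and tested with edgeR 4.0.16 (R 4.3.3) by the quasi-likelihood test, with TMM factors, a minimum count of 10 in the expression filter, and Benjamini-Hochberg adjusted p under 0.05. Interactions with nmSC and mySC kept the sample as a block. DESeq2 1.42.0, other filters and samples left out were alternatives. Doublets were called with Scrublet in scanpy 1.11.5, which marked 116 of 16050 barcodes (0.723%), and were kept. Of 31053 gene IDs 31011 matched GENCODE. Named genes were those past the threshold with groups that did not overlap, at most 10 in each direction beyond 20, the 25 leading genes, and up to 4 abundant members of each list; further list members were named after their values were seen. Members and lists were chosen with earlier results of these data known. Depth was 20414 to 473209 UMIs of EC per sample, and intervals cover counting error only. Some genes are not reported here.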

Additional observations from a re-analysis of the deposited data

Results flagged for a closer look

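The interaction test found that the effect of the knockout label differed between EC and nmSC for 18 named genes. Values are log2 label effects in EC minus those in nmSC. The effect was lower in EC for Ccl21a (−14.69), Angptl7 (−8.21), Socs3 (−7.86), Mfap5 (−7.76), Col1a2 (−7.73), Smoc2 (−7.61), Rarres2 (−7.55), Dcn (−4.21), Lum (−3.72), Gsn (−3.40), Apod (−3.37), Ccl11 (−3.14), Pmp22 (−2.81), Gpc3 (−2.75), Cd63 (−2.70), Apoe (−1.95), Junb (−1.42). It was higher in EC for Id1 (5.84). Ccl21a, Angptl7, Socs3, Mfap5, Col1a2, Smoc2 and Rarres2 had 0 UMIs in EC of every knockout-labelled sample, so their fitted values depend on the prior count.

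Between EC and mySC the effect differed for 19 named genes. It was lower in EC for Col1a2 (−7.55), Rarres2 (−6.28), Iigp1 (−5.48), Ifi47 (−4.33), Gbp3 (−4.12), Col1a1 (−3.97), Col3a1 (−3.92), Fxyd1 (−3.46), H2-D1 (−3.34). It was higher in EC for Pllp (2.23), Cav1 (2.23), Klf2 (2.33), Cd9 (2.43), Tmem176a (2.56), Id1 (3.16), Msmo1 (3.66), Cldn5 (3.77), Sncg (4.37), Sox17 (4.97). Control 1 had 20 mySC, and Col1a2 and Rarres2 had 0 UMIs in EC of every knockout-labelled sample. Ifi47 and Gbp3 met the count filter only through mySC with the label. Cldn5 met it only through EC, and Sox17 had 0 UMIs in mySC with the label.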

How the results depend on the processing

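For EC with the knockout label against NOD control, 14 genes passed; 31 did so with no filter on low counts, 32 with control libraries 2-1 and 2-2 as separate samples and 6 with all 3 mouse groups in 1 fit. Leaving out 1 sample gave 7 (without knockout-labelled sample 1) to 37 (without NOD control 1). Against C57BL/6, 31 passed, 121 with no filter, and 22 to 46 with 1 sample left out. For EC minus nmSC, 19 passed, 5 with DESeq2, 4 with the knockout-labelled libraries summed as 1 sample and 6 to 15 with 1 sample left out. For EC minus mySC, 50 passed, 11 with DESeq2, 28 with no filter, 10 with the libraries summed and 13 (without NOD control 2) to 56 (without NOD control 1) with 1 left out. Where an arm was left with 1 sample, that sample was assumed to vary like the others. The EC share difference was −2.66 points over all annotated cells and 10.1 to 16.5 with 1 sample left out. Without NOD control 2, 3 values of EC minus mySC reversed: Cav2 was −4.33 (highest with 1 sample left out 2.57), Irgm1 2.89 (lowest −5.28) and Ly6c1 −2.61 (highest 6.51); the cause was not tested. Of the other planned single-gene values, 292 lost a call, 41 gained one and 4067 did neither. With a replicate block, 18 genes passed against NOD control (9 higher, 9 lower) and 34 against C57BL/6 (17 each way). Deviations from the group mean correlated by 0.121 and 0.0379 between same-numbered samples of the NOD groups, and by 0.0802 and −0.0489 against C57BL/6. With so few samples the deviations within a group are tied to each other. They cannot show whether samples with the same number were handled together. Interaction fits already hold the sample as a block. Removing EC with 2 or more leukocyte UMIs, chosen after seeing the data, gave 16 and 31 genes. Depth limits these 82 cells: 3 counts are 33.2 CPM.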

Other observations

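Signalling genes of the knockout-labelled EC had values outside the comparisons above. Of the vascular growth receptors, Flt1 had 16, 10 and 12 UMIs in libraries 1, 2 and 3 (421 CPM pooled, 27 cells) against 14.8 CPM in MC, the next type, whereas Kdr had 0, 2 and 2 UMIs. The angiopoietin receptor genes Tek and Tie1 had 122 and 99.8 CPM. Acvrl1, a BMP receptor of endothelium, had 310 CPM, and Id3, a target of BMP signals, had 85, 50 and 57 UMIs (2128 CPM) against 596 CPM in nmSC. The Notch ligand gene Dll4 was counted in 9 of 82 cells.

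Matrix and clotting genes were shared with other types. Sparcl1 had 2272 CPM in EC and 981 CPM in nmSC, and Sparc had 1651 CPM in EC and 6994 CPM in mySC. The anticoagulant receptor genes Thbd and Procr had 188 and 133 CPM in EC and 190 and 299 CPM in fibro. Among chemokines, Cx3cl1 was counted in 6 cells and the interferon-induced Cxcl9 and Cxcl10 in 1 and 2 cells. Of 51 Fos UMIs 41 came from 4 cells.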
